A study of Mus musculus with 24 samples.

Results

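Translation initiation factors bring the ribosome to an mRNA and set it on the start codon. The 54 genes described here are the protein-coding mouse genes whose symbols begin with *Eif1* to *Eif6*, without *Eif4enif1*, which encodes a transport protein for a cap-binding factor. They were taken by symbol from 21974 protein-coding genes, among 55471 annotated genes. By factor they are 5 genes of eIF1, 6 of eIF2, 5 of eIF2B, 4 kinases of eIF2, 14 of eIF3, 5 of eIF4A, eIF4B and eIF4H, 4 of eIF4E, 3 eIF4E-binding proteins (4E-BPs), 3 of eIF4G, 4 of eIF5 and 1 of eIF6. They were followed over the maternal-to-zygotic transition (MZT), in which the embryo clears mRNAs laid down in the oocyte and begins to transcribe its own genome. MII oocytes came from superovulated 8-week-old B6D2F1 (C57BL/6J x DBA/2N) wild-type females, with cumulus cells removed by hyaluronidase, and embryos at the late 1-cell stage (L1C) or the late 2-cell stage (L2C) came from matings of B6D2F1 females with B6D2F1 males. Each stage has 3 input libraries of total RNA and 3 libraries of RNA immunoprecipitated (IP) with an antibody against N6-methyladenosine (m6A), a methyl mark on mRNA, by the low-input method SLIM-seq (18 libraries). A separate experiment has 6 libraries of B6D2F1 embryos, also at L2C: 3 from zygotes injected with Cas13d mRNA together with crRNAs that target *Ythdc1* (KD) and 3 from zygotes that received Cas13d mRNA alone (Ctrl). *Ythdc1* binds m6A in the nucleus, and Cas13d is an RNA-guided enzyme that cuts RNA. The knockdown lowers and does not remove *Ythdc1* mRNA, Ctrl embryos carry Cas13d without a crRNA, and each library pools oocytes or embryos, so no value belongs to a single embryo.

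Initiation runs in a fixed order. eIF2 carries the initiator tRNA to the small ribosomal subunit, eIF1 and eIF1A keep that subunit open for scanning, eIF3 holds the assembly together, and the cap-binding complex of eIF4E, eIF4G and the helicase eIF4A brings in the mRNA. eIF5 and eIF5B release eIF2 and join the large subunit, eIF2B recharges eIF2, and the eIF2 kinases and the 4E-BPs are brakes on eIF2B and eIF4E. Oocytes and early embryos store mRNAs and translate them on demand, and they carry germline forms of several of these factors.

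SLIM-seq libraries hold 11107421 to 39739950 estimated counts and the knockdown libraries 3276715 to 5463868 counts in the merged table or 8696476 to 14500548 over the whole annotation. The members took on average 0.706% of the input counts at MII, 0.452% at L1C and 0.945% at L2C. In KD libraries *Ythdc1* stood at 523, 541 and 519 counts scaled to a fixed library total (CPM) against 1080, 1098 and 994 in Ctrl, with no overlap (log2 value -1.0 ± 0.06, SE, adjusted p = 1.3e-10 by edgeR). The stage labels were checked with marker lists. The summed level of 7 oocyte transcripts was 7012 to 8051 CPM at MII, 3522 to 3893 at L1C and 605 to 635 at L2C, that of 6 2-cell transcripts was 1.55 to 1.97, 73.5 to 101 and 339 to 463, and none of the 13 was at 0 in every library of a stage except *Usp17la* at MII. The 10 cumulus and granulosa cell markers summed to 58.5 to 66 CPM at MII, 35.9 to 38.1 at L1C and 246 to 267 at L2C, of which *Amhr2* alone made up 242 to 263 at L2C, and 4 blood markers summed to at most 11.6 in the inputs. CPM are relative to each library, so less RNA of a gene and more RNA of other genes cannot be told apart, and neither can fewer embryos and less RNA per embryo. Nothing in the labels says whether the replicates came from separate collections, so p-values measure the spread between these samples.

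The paralogues *Eif1* and *Eif1b* went opposite ways after the L1C stage and were both enriched in the m6A IP, so the start of their coding regions is shown first. Each line gives 90 bases from the start codon on the plus strand of GRCm38 over 2 exons, chr11:100320130-100320724 for *Eif1* and chr9:120492811-120494165 for *Eif1b*, with capitals at the 13 places where the sequences differ.
Eif1: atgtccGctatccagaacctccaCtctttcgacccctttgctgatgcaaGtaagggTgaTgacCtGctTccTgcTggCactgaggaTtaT
Eif1b: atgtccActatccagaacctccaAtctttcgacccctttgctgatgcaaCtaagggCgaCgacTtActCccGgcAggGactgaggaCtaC
Over the whole coding region of 342 bases the pair differ at 64 places (81.3% identical), and no stretch of 31 bases of one mRNA is found in the other. The pair *Eif3j1* and *Eif3j2* differ from this, since 94.0% of the 31-base stretches of *Eif3j2* also lie in *Eif3j1* and 41.0% the other way, so how their reads were shared out is uncertain. m6A is often found at the letters GGACT, which were counted on the sense strand of 1 GENCODE M21 mRNA per gene. Selected motif places of 2 mRNAs called higher in the IP at all stages (*Eif1b* and *Eif1ax*) and 2 called lower at all stages (*Eif4g2* and *Eif4h*) follow, to show that both kinds carry the letters, with the motif in capitals. Both places of *Eif1b* are shown, and 1 place each of the 3 in *Eif1ax*, the 9 in *Eif4g2* and the 2 in *Eif4h*.
Eif1b, coding region, chr9:120494140-120494168, plus strand: tactcccggcagGGACTgaggactacatt
Eif1b, coding region, chr9:120494147-120494175, plus strand: ggcagggactgaGGACTacattcatataa
Eif1ax, 3′ UTR, chrX:159389229-159389257, plus strand: catgggaatccaGGACTgtaagaagatgc
Eif4g2, coding region, chr7:111076952-111076980, minus strand: gacccacttgggGGACTtgctgatatgtt
Eif4h, coding region, chr5:134639278-134639306, minus strand: acggcaaatggcGGACTtcgatacctacg
Both coding-region motifs of *Eif1b* lie in the stretch printed above, and *Eif1* has 0 in its coding region and 2 outside it. The motif was found in 88.9% of the 54 members, at a median of 1.179 per kb of mRNA, and in 86.6% of 21901 protein-coding genes, at a median of 1.014 per kb. mRNAs of the members had a median length of 2446.5 bases against 2539 over all genes. Motif counts per kb overlapped between the 7 members that were enriched at all stages (0 in *Eif3k* to 1.932 in *Eif1b*) and the 5 that were depleted at all stages (0.734 in *Eif4h* to 1.691 in *Eif4a1*).

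At MII the highest mRNA levels per kb of exon were those of *Eif5a* at 424 CPM per kb, *Eif2b1* at 416, *Eif4e3* at 261 and *Eif4e1b* at 241. At L1C *Eif4e1b* came first with 244 CPM per kb, followed by *Eif5a* at 226 and *Eif2b1* at 208. The order had changed by L2C, with *Eif5a* at 596 CPM per kb, *Eif6* at 397, *Eif2b4* at 166, *Eif5* at 125 and *Eif2b1* at 108, while *Eif4e1b* stood at 21.9. These levels count RNA on kallisto targets that span whole genes, introns included, and in Ctrl L2C embryos, which were counted on exons, *Eif1* came first at 489 CPM per kb, *Eif5* was at 444 and *Eif5a* at 85.7. Orders of level can therefore not be carried from one kind of count to the other. The levels by stage divide counts on whole spans by the length of exons, so their order is uncertain among themselves as well. At L2C *Eif2s2* was at 13.2 CPM per kb in inputs and 187 in Ctrl, and *Eif4h* at 59.7 and 12.5.

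More initiation factor mRNAs fell than rose from MII to L1C, and most rose from L1C to L2C. From MII to L1C 27 of 54 members fell and 11 rose, where 24.3% of the 19903 genes tested fell and 31.9% rose. From L1C to L2C 40 members rose and 10 fell, where 44.1% of the genes tested rose and 38.8% fell. The median log2 change of the members was -0.38 at the first step (0.16 over all genes tested) and 1.85 at the second (0.17 over all). The 40 include *Eif3m*, which is listed at 0 in all MII and L1C libraries though exon counts show it at L2C, and without it, a choice made after seeing the data, 39 of 53 rose with a median of 1.79. Of the 27 that fell at first, 20 rose at the second step, among them *Eif1*, *Eif3a*, *Eif3c*, *Eif4g1*, *Eif4g2*, *Eif5* and *Eif5a*. Another 9 rose at both steps (*Eif1a*, *Eif2b4*, *Eif2b5*, *Eif2s3x*, *Eif3j1*, *Eif3j2*, *Eif4e*, *Eif4h* and *Eif5a2*) and 5 fell at both (*Eif2ak1*, *Eif2ak4*, *Eif2b1*, *Eif4a1* and *Eif4e3*), and *Eif2ak2* and *Eif2b3* passed the test at neither. Of all genes tested 9.78% fell and then rose (37% of the members), 14.7% rose at both steps (16.7%) and 10.5% fell at both (9.26%). Among all genes that fell at the first step, 40.2% rose at the second. Both steps share the L1C inputs, so the calls at one are not independent of those at the other. The plot of both steps by factor shows eIF3 on both sides of 0 at the first step and entirely above 0 at the second.

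**Figure D1:**
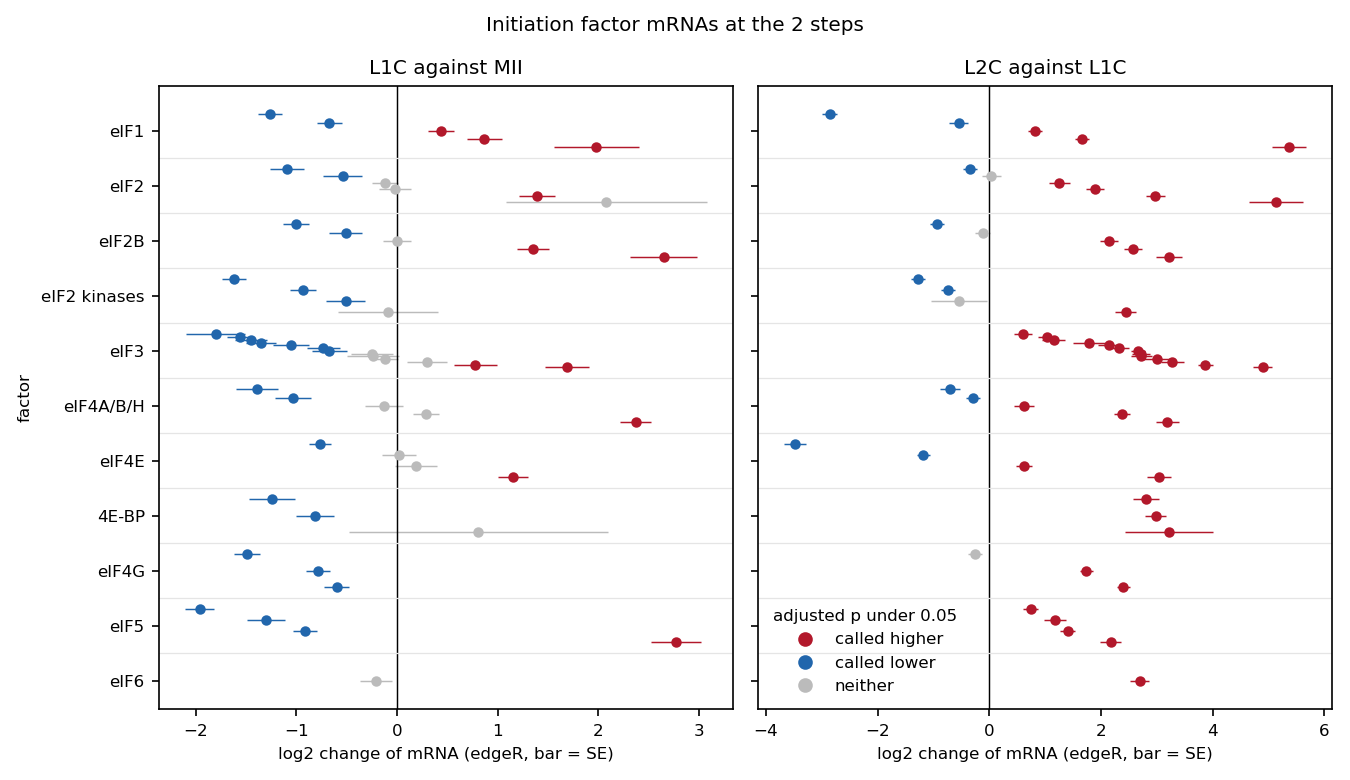
log2 change of mRNA from MII to L1C (left) and from L1C to L2C (right) of 53 members, with *Eif3m* left out, 1 point per gene in rows by factor. Bars are the SE of edgeR, and colours mark an adjusted p under 0.05. At the second step every plotted eIF3, 4E-BP and eIF5 gene lies above 0.

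From MII to L2C 35 members had risen and 13 had fallen, where 47.5% of the genes tested rose and 37.1% fell, with a median log2 change of 1.46 (0.40 over all genes tested). Without *Eif3m* 34 of 53 had risen, with a median of 1.36. This comparison shares its libraries with both steps. Scaling to library size alone in place of TMM moves the log2 values of all genes by a median of 0.14 there. All 40 calls of a rise from L1C to L2C were kept under every alternative tried, including each library left out, and so were 24 of the 27 falls and 10 of the 11 rises from MII to L1C. The calls that were not kept are those of *Eif1b* (adjusted p = 0.056 without MII input replicate 2), *Eif2b2* (0.057 without L1C replicate 1 or MII replicate 3), *Eif2s1* (up to 0.12 without L1C replicate 3, MII replicate 2 or MII replicate 3) and *Eif2ak3* (up to 0.12 without L1C replicate 2 or 3 or MII replicate 2 or 3) from MII to L1C, of *Eif2d* (up to 0.11 without L1C replicate 3 or L2C replicate 1 or 3) and *Eif4b* (up to 0.19 without L1C replicate 2 or 3 or L2C replicate 1 or 3) from L1C to L2C, and of *Eif4a2* (up to 0.095 without replicate 1 or 3 of MII or L2C) from MII to L2C, all by edgeR. The falls of *Eif2d* and *Eif4b* were also lost with DESeq2 (adjusted p = 0.21 and 0.35) and with library size scaling (edgeR, adjusted p = 0.075 and 0.15). That of *Eif4b* was lost as well with no filter on low counts and with the replicate block. That of *Eif2ak3* was lost as well with no filter and with the compared stages only.

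The genes of eIF1 and eIF1A, which hold the small subunit in its scanning form, included a pair with opposed courses. *Eif1* stood at 323, 277 and 280 CPM in MII inputs, 112, 123 and 133 at L1C and 197, 232 and 221 at L2C. Its fall by 1.26 ± 0.12 on the log2 scale (edgeR, adjusted p = 1.2e-06) and its rise by 0.82 ± 0.12 (adjusted p = 1.8e-05) were both larger than the spread, with no overlap between stages. The paralogue *Eif1b* was at 109, 105 and 128 CPM at MII, 150, 146 and 169 at L1C, then 20.6, 19.6 and 23.9 at L2C. It rose by 0.44 ± 0.13 to L1C (edgeR, adjusted p = 0.0084) and then fell by 2.86 ± 0.14 on the log2 scale (adjusted p = 1.1e-10), the smallest p of any member that fell at that step. *Eif1b* was thus above *Eif1* only at L1C in these libraries, by CPM per kb 138 against 58.5, and below it at L2C, 19 against 103. The X-linked *Eif1ax* was at 15.2, 21.7 and 23 CPM, 34.6, 40.3 and 34.6, and 25.9, 21.1 and 27.5 over the stages, a rise of 0.87 ± 0.17 (edgeR, adjusted p = 7.4e-04) and a fall by 0.55 ± 0.17 on the log2 scale (adjusted p = 0.0085). Its autosomal paralogue *Eif1a* went from 0.689, 0.15 and 0.394 CPM through 1.73, 1.07 and 2.32 to 82.7, 56 and 71, a log2 rise of 5.37 ± 0.30 at the second step (edgeR, adjusted p = 5.1e-10). The MII level of *Eif1a* rests on 3 to 16 counts per library. *Eif1ad*, a related gene with the eIF1A fold, fell by 0.67 ± 0.12 and rose by 1.66 ± 0.12 on the log2 scale, from 53.3 to 65.3 CPM at MII to 107 to 121 at L2C.

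Of the eIF2 genes, which encode the carrier of the initiator tRNA and related tRNA-binding proteins, 4 of 6 rose and 1 fell from L1C to L2C, where 44.1% of all genes tested rose and 38.8% fell. The gamma subunit is encoded on both sex chromosomes. *Eif2s3x* was at 5, 3.75 and 2.99 CPM at MII, 10.2, 10.2 and 10.8 at L1C, then 83.7, 79 and 81.9 at L2C, with no overlap and log2 rises of 1.39 ± 0.18 (edgeR, adjusted p = 1.4e-05) and 2.97 ± 0.17 (adjusted p = 5.2e-10). The Y-linked *Eif2s3y*, which oocytes do not carry, held 0, 0 and 2 counts in MII inputs, 2, 6 and 2 at L1C and 213, 92 and 215 at L2C, that is 7.19, 4.38 and 5.44 CPM at L2C. Against a floor of 3 counts per MII library its L2C level was at least 33.5-fold higher. The alpha subunit gene *Eif2s1* rose by 1.25 ± 0.19 at the second step, and *Eif2a*, which encodes another tRNA-binding factor, by 1.90 ± 0.16. The beta subunit gene *Eif2s2* fell by 1.09 ± 0.17 on the log2 scale to L1C and had a log2 value of 0.03 ± 0.17 afterwards, so its L2C inputs (82.5 to 93.6 CPM) stayed under those of MII (136 to 231 CPM). The span of *Eif2s2* lies within that of another gene on the opposite strand. *Eif2d*, whose product works in recycling and reinitiation, went from 95 to 108 CPM at MII to 64 to 82.2 at L2C.

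The 5 subunit genes of eIF2B, the exchange factor of eIF2, did not move together. *Eif2b5*, the catalytic epsilon subunit, had 0.302, 0.2 and 0.451 CPM at MII, 1.73, 2.46 and 1.78 at L1C, then 16.4, 21.9 and 17.6 at L2C, and *Eif2b4* went from 29.2, 25.1 and 30.7 CPM to 385, 492 and 416. Their log2 rises from MII to L2C were 5.87 ± 0.30 and 3.93 ± 0.17 (edgeR, adjusted p = 1.4e-10 and 3.5e-11), and the MII level of *Eif2b5* rests on 4 to 8 counts per library. *Eif2b1*, the alpha subunit, fell at both steps, from 1146, 1044 and 1029 CPM to 521, 462 and 630 and then 259, 303 and 275. *Eif2b2* fell to L1C and rose by 2.14 ± 0.16 to L2C, and *Eif2b3* was at 63.6 to 69.9, 61.6 to 75.4 and 51.7 to 73 CPM, overlapping between all stages.

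Among the 4 kinases that phosphorylate eIF2 under stress, *Eif2ak1* and *Eif2ak4* had their highest mRNA levels in the oocyte. *Eif2ak1*, the haem-regulated kinase, was at 411, 376 and 406 CPM at MII, 135, 114 and 139 at L1C, then 72.8, 79.3 and 81.5 at L2C. It fell by 1.62 ± 0.12 (edgeR, adjusted p = 7.7e-08) and by 0.74 ± 0.12 on the log2 scale (adjusted p = 4e-05), with no overlap at either step. *Eif2ak4* (GCN2, the amino acid sensor) fell from 68.9, 66.2 and 74.2 CPM to 36, 34.3 and 39.3 and to 13.6, 15.5 and 16.1, by 0.93 ± 0.13 and 1.28 ± 0.13 on the log2 scale (edgeR, adjusted p = 2.9e-05 and 3.8e-07). Only *Eif2ak3* (PERK, the kinase of the endoplasmic reticulum) was higher at L2C than at MII, at 3.88, 4.74 and 5.3 CPM, 3.43, 3.11 and 3.18, and 16, 19.3 and 17.6, a log2 rise of 2.44 ± 0.19 at the second step (edgeR, adjusted p = 1.6e-08). *Eif2ak2* (PKR, the sensor of double-stranded RNA) was at 0.19 to 0.973 CPM in the 9 inputs, on 4 to 23 counts, with overlap and no call. The kinases together summed to 473 ± 21.6 CPM (SD, n = 3) at MII, 170 ± 15.7 at L1C and 111 ± 7.08 at L2C.

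eIF3 is the largest factor and the scaffold of the complex, and all 14 of its genes were called higher at L2C than at L1C, with a median log2 change of 2.68. Over all genes tested 44.1% rose and the median was 0.17. Without *Eif3m*, which is listed at 0 before L2C, this was 13 of 13 with a median of 2.66. *Eif3g*, an RNA-binding subunit, was at 7.32, 8.59 and 8.68 CPM at MII, 4.19, 6.13 and 5.18 at L1C, then 141, 172 and 148 at L2C. Its log2 rise of 4.90 ± 0.17 (edgeR, adjusted p = 7.2e-12) and that of the core subunit gene *Eif3c*, 3.87 ± 0.14 (adjusted p = 1e-11), had the smallest p of all members at that step. *Eif3c* had 50.3, 52.2 and 64.5 CPM at MII, 19.2, 18.9 and 18.7 at L1C, then 258, 266 and 307 at L2C, so it had fallen and then passed its oocyte level. The summed level of eIF3 was 341 ± 21.6 CPM (SD, n = 3) at MII, 185 ± 3.1 at L1C and 1037 ± 21.7 at L2C. At the first step, where 24.3% of all genes tested fell and 31.9% rose, 7 of 14 fell (*Eif3a*, *Eif3c*, *Eif3d*, *Eif3e*, *Eif3g*, *Eif3i* and *Eif3k*), and the 2 that rose were *Eif3j1* and *Eif3j2*, which encode the loosely bound subunit that helps eIF3 onto the ribosome. *Eif3j1* went from 2.46, 1.8 and 2.2 CPM to 8.59, 6.59 and 5.61 and to 36.2, 25.8 and 30.2, and *Eif3j2* from 14.5, 21.3 and 26.1 to 42.5, 34.6 and 28.7 and to 93.2, 67.8 and 73.7. Their split is uncertain because they share sequence. By L2C 11 of 14 were above MII (10 of 13 without *Eif3m*), *Eif3i* was below it (by 0.84 ± 0.16 on the log2 scale), and *Eif3d* and *Eif3e* did not pass the test. Over all genes tested 47.5% were above MII and 37.1% below. Core subunit genes *Eif3a* and *Eif3b* rose by 2.71 ± 0.16 and 3.01 ± 0.25 at the second step, and *Eif3f*, *Eif3h*, *Eif3k* and *Eif3l* by 2.32 to 3.28. *Eif3m* is listed at 0 in all 12 MII and L1C libraries and at 5.71, 6.04 and 6.07 CPM in L2C inputs. Its whole span lies within that of *Ccdc73* on the other strand, exon counts over the whole annotation put it at 99 to 112 CPM in Ctrl embryos, and no fold is given for it.

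Among the cap-binding proteins the oocyte form fell after L1C and the canonical form rose at both steps. *Eif4e1b*, a germline form of eIF4E, was at 669, 512 and 451 CPM at MII, 511, 497 and 646 at L1C, then 40.6, 59.3 and 48.3 at L2C. It overlapped between MII and L1C (log2 0.02 ± 0.17) and then fell by 3.48 ± 0.19 on the log2 scale (edgeR, adjusted p = 4e-10), 11.2-fold and with no overlap. *Eif4e3* fell at both steps, from 724, 620 and 626 CPM to 377, 375 and 410 and to 163, 167 and 183, and its span lies within that of *Gm20696* on the same strand. The canonical *Eif4e* went the other way, from 111, 113 and 97.3 CPM to 284, 224 and 208 and to 391, 310 and 399, with log2 rises of 1.15 ± 0.15 (edgeR, adjusted p = 1.5e-05) and 0.62 ± 0.14 (adjusted p = 0.0011). *Eif4e2*, a cap-binding repressor, was at 5.99, 6.49 and 8.4 CPM, 6.94, 6.82 and 10.1, and 59.3, 78.9 and 56.9, and rose by 3.04 ± 0.21 at the second step (edgeR, adjusted p = 4.3e-09). The summed level of the 4 genes was 1315 ± 173 CPM at MII, 1185 ± 85.7 at L1C and 652 ± 35.8 at L2C (SD, n = 3, no test).

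All 3 genes of the 4E-BPs, which keep eIF4E from eIF4G, rose from L1C to L2C, where 44.1% of all genes tested rose, and 1 of them (*Eif4ebp3*) rests on few counts. *Eif4ebp1* was at 7.71, 7.24 and 5.8 CPM at MII, 1.95, 3.39 and 3.5 at L1C, then 18.5, 22.9 and 20.4 at L2C, and *Eif4ebp2* at 7.28, 8.34 and 7.04, 4.06, 3.34 and 5.55, and 31.6, 35.5 and 34.4. Both fell at the first step, by 1.24 ± 0.23 and 0.81 ± 0.19 on the log2 scale (edgeR, adjusted p = 4e-04 and 0.0027), and rose by 2.81 ± 0.23 and 2.98 ± 0.19 at the second (adjusted p = 3.1e-08 and 2.8e-09), with no overlap. *Eif4ebp3* held 0 to 3 counts in every MII and L1C input and reached 0.54, 0.857 and 0.506 CPM at L2C, at least 3.75-fold above the floor of MII and 3.92-fold above that of L1C, and its span lies within another gene on the same strand.

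All 3 scaffold genes of eIF4G fell to L1C, where 24.3% of all genes tested fell, and then parted. *Eif4g1* went from 68.2, 65.2 and 65 CPM to 40.8, 42.7 and 47.8 and to 213, 243 and 238, a rise of 2.40 ± 0.12 (edgeR, adjusted p = 1.7e-10). *Eif4g2* (DAP5, which lacks the eIF4E-binding part) went from 478, 518 and 558 CPM to 337, 275 and 292 and to 1065, 913 and 1043, a rise of 1.74 ± 0.12 (edgeR, adjusted p = 7.3e-09). *Eif4g3* fell by 1.49 ± 0.13 on the log2 scale at the first step (edgeR, adjusted p = 3.3e-07), from 126, 121 and 119 CPM to 40.4, 41.7 and 48.3, and did not pass the test at the second, with 35.2, 40.3 and 33.1 at L2C.

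The helicase paralogues differed as well. *Eif4a1* fell at both steps, from 286, 365 and 426 CPM to 145, 175 and 209 and to 98.5, 133 and 93.7 (edgeR, adjusted p = 2.6e-04 and 0.0022). *Eif4a3*, whose product sits in the exon junction complex, fell from 11.8, 13.7 and 16.3 CPM to 3.64, 6.22 and 6.09 and rose to 44.7, 48.3 and 51.9, by 3.19 ± 0.21 (edgeR, adjusted p = 3.1e-09), and *Eif4a2* was at 15.2, 18.7 and 15.2, 18.3, 14.5 and 12, and 25.5, 19.1 and 24.2. *Eif4h*, a cofactor of the helicase, had the smallest p of the members that rose from MII to L1C and from MII to L2C. It went from 11.5, 13.1 and 12.3 CPM to 50.8, 67.5 and 73 and to 314, 344 and 336, log2 rises of 2.37 ± 0.15 (edgeR, adjusted p = 1.4e-08) and 2.38 ± 0.14 (adjusted p = 1.1e-09), and no stage overlapped another. The other cofactor gene *Eif4b* was at 68.2 to 76.4, 76.6 to 101 and 68 to 77.2 CPM.

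At the last steps of initiation, *Eif5b*, the GTPase that joins the subunits, had the smallest p of the members that fell from MII to L1C. It dropped from 313, 362 and 446 CPM to 87, 104 and 97.1 and recovered to 155, 156 and 168, a fall by 1.96 ± 0.14 on the log2 scale (edgeR, adjusted p = 6.2e-08) and a rise of 0.74 ± 0.14 (adjusted p = 1.7e-04). *Eif5*, the GTPase activator of eIF2, fell by 1.30 ± 0.19 and rose by 2.17 ± 0.19, to 700 to 992 CPM at L2C. *Eif5a*, which helps ribosomes through difficult stretches, was at 957, 998 and 1067 CPM at MII, 454, 559 and 596 at L1C, then 1320, 1497 and 1430 at L2C. Its paralogue *Eif5a2* rose at both steps, from 0.646, 0.649 and 0.564 CPM to 4.82, 3.9 and 4.1 and to 10.9, 8.42 and 9.77, and its first rise of 2.77 ± 0.25 had an adjusted p of 5.5e-07 (edgeR). *Eif6*, which keeps the ribosomal subunits apart, went from 121 to 200 CPM at L1C to 989, 1079 and 1148 at L2C, by 2.69 ± 0.17 (edgeR, adjusted p = 2.2e-09).

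**Figure D2:**
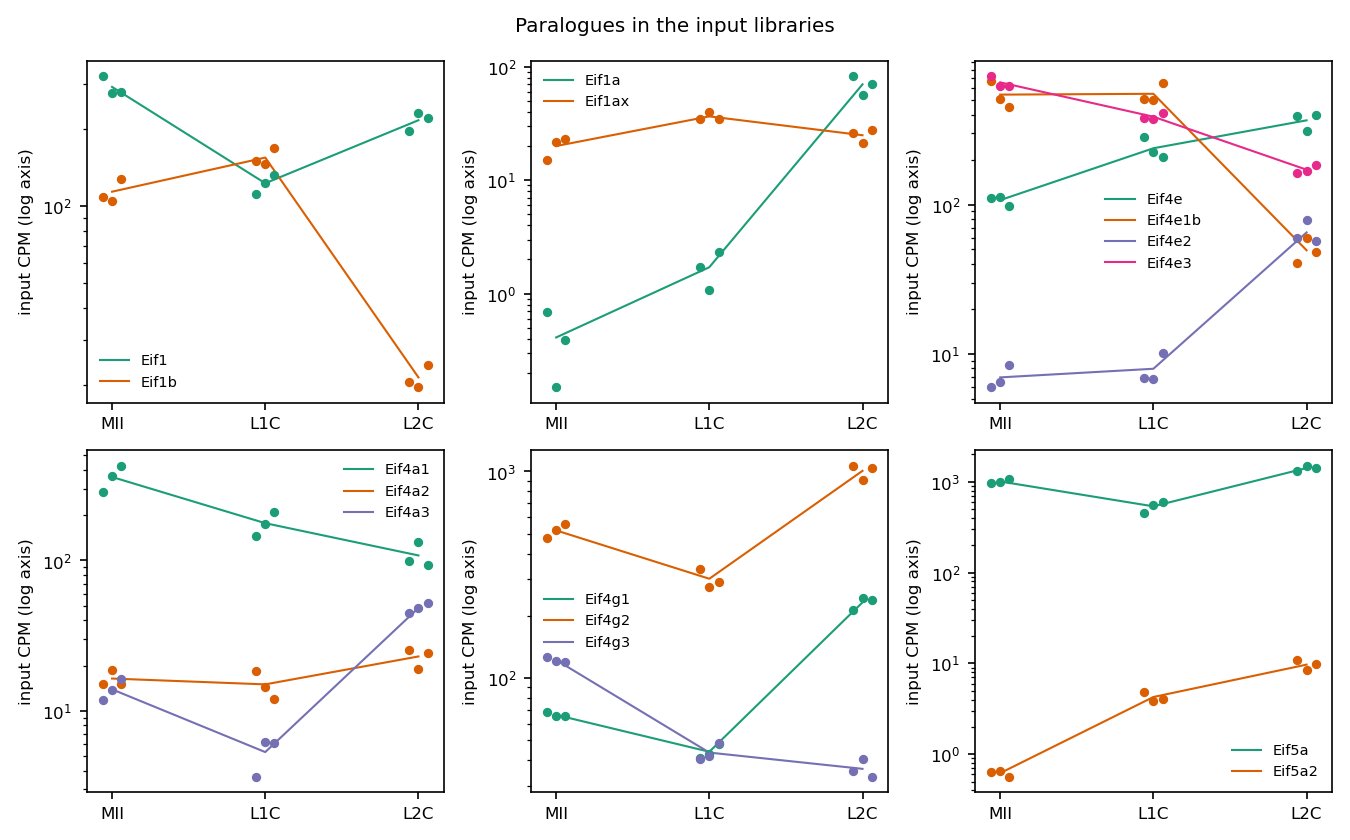
Input CPM (log axis) of paralogues at MII, L1C and L2C, 1 point per library (n = 3 a stage), with lines through the means. *Eif1b* and *Eif4e1b* drop between L1C and L2C, *Eif4a1* falls at both steps, and *Eif1a*, *Eif4e2*, *Eif4a3* and *Eif5a2* end above their low MII levels.

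Antibody pull-down set apart some of the same paralogues. IP/input is the ratio of an mRNA in the IP to that in the input, and it is relative to all other RNAs of the library. At MII 18 of 54 members were higher in the IP and 8 lower, where 17.7% of the 21950 genes tested were higher and 21% lower. At L1C the counts were 17 and 6 (15.8% and 18.2% of all genes), and at L2C 16 and 12 (22% and 22%). The median log2 IP/input of the members was 0.22, 0.27 and 0.14 at the 3 stages, against 0.00, 0.07 and 0.09 over all genes tested. With scaling to library size alone, which moves the log2 values of all genes by a median of 0.24, 0.30 and 0.25, the members counted higher and lower were 28 and 5 for MII, then 32 and 3 for L1C and 27 and 6 for L2C, and the share of all calls that were higher went from 45.7% to 61.7%, from 46.5% to 70.9% and from 50% to 67.6%. No member's call changed direction under that scaling. At L2C only 9 members were called higher without input replicate 2 and 10 without IP replicate 2, so the count of 16 rests on those libraries. Leaving out L2C input replicate 2 ended the L2C calls of *Eif2a*, *Eif2ak3*, *Eif2s1*, *Eif2s3y*, *Eif3a*, *Eif3e*, *Eif3j2* and *Eif5* (higher) and of *Eif2b2*, *Eif2d* and *Eif3d* (lower). Calls kept under every alternative numbered 12 higher and 5 lower for MII, then 13 and 3 for L1C and 6 and 6 for L2C.

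The members enriched at all 3 stages were *Eif1*, *Eif1b* and *Eif1ax* of eIF1 and *Eif3b*, *Eif3e*, *Eif3h* and *Eif3k* of eIF3, which is 13% of the members against 6.5% of all genes tested. Those depleted at all 3 stages (*Eif2ak1*, *Eif4a1*, *Eif4b*, *Eif4g2* and *Eif4h*) were 9.26% of the members against 9.54% of all genes tested. CPM in this comparison come from the joint scaling of all 18 libraries, so inputs differ slightly from the levels above. *Eif1b* had 134, 126 and 152 CPM in MII inputs and 349, 321 and 288 in the IPs, a log2 IP/input of 1.22 ± 0.15 (edgeR, adjusted p = 2.4e-06). At L1C it had 172, 167 and 189 against 460, 382 and 436, and at L2C 19.9, 18.5 and 23.2 against 46.1, 71.9 and 48.1, log2 values of 1.28 ± 0.15 and 1.42 ± 0.15 (adjusted p = 2.3e-06 and 7.3e-07). Every IP library was above every input, while the mRNA itself fell 7.24-fold between the last 2 stages. *Eif1* was enriched less, with 395, 333 and 333 CPM against 443, 484 and 482 at MII, 128, 140 and 149 against 204, 186 and 230 at L1C, and 191, 220 and 214 against 324, 434 and 282 at L2C, log2 values of 0.41 ± 0.14, 0.57 ± 0.14 and 0.73 ± 0.14 (edgeR, adjusted p = 0.024, 0.0034 and 3e-04). Its call at MII was lost without IP replicate 2 or 3 or input replicate 2 or 3 (adjusted p up to 0.093). *Eif1ax* had 18.6, 26 and 27.4 CPM against 65.5, 48.5 and 69.3 at MII, 39.7, 45.8 and 38.8 against 76.4, 73.2 and 106 at L1C, and 25.1, 20 and 26.6 against 37.1, 54.4 and 36.3 at L2C, with log2 values of 1.35 ± 0.20, 1.04 ± 0.19 and 0.82 ± 0.20 and no overlap. *Eif1a* overlapped between IP and input at every stage, and none of its tests passed.

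Of the 14 eIF3 genes, 8, 6 and 7 were higher in the IP over the stages and 1, 0 and 1 lower. Over all genes tested 17.7%, 15.8% and 22% were higher and 21%, 18.2% and 22% lower. Of the 7 at L2C, the calls of *Eif3b* and *Eif3h* were kept under every alternative tried and those of the other 5 were not. *Eif3b* had the highest ratio of them at MII, with 3.32, 3.95 and 2.41 CPM in inputs and 9.43, 10.5 and 10.9 in IPs, and log2 values of 1.66 ± 0.21, 1.12 ± 0.21 and 0.80 ± 0.18 over the stages (edgeR, adjusted p = 2.7e-06, 3.4e-04 and 0.0016). *Eif3h* was at 4.6, 3.22 and 4.48 CPM against 9.78, 8.86 and 9.9 at L1C, 1.21 ± 0.18 (edgeR, adjusted p = 3.7e-05). *Eif3e* and *Eif3k* had log2 values of 0.70 to 1.34 and 0.48 to 0.60. The call of *Eif3e* was lost at MII without IP replicate 3 or input replicate 1 or 2 and at L2C without IP replicate 3 or input replicate 2 (edgeR, adjusted p up to 0.1 at both). The scaffold subunit gene *Eif3a* was lower in the IP at MII (-0.45 ± 0.14, lost without IP replicate 2 or input replicate 3) and higher at L2C (0.35 ± 0.14, lost without any of 5 libraries, adjusted p up to 0.26, edgeR). Calls of *Eif3f*, *Eif3k* and *Eif3j2* (higher) at L2C were lost without 1 to 3 libraries (adjusted p up to 0.23).

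In the cap-binding complex the members of smallest p were depleted in the IP. *Eif4g2* had 585, 622 and 664 CPM in MII inputs and 211, 193 and 212 in the IPs, a log2 IP/input of -1.60 ± 0.11 (edgeR, adjusted p = 1.7e-09). It stayed lower in the IP at L1C, 386, 313 and 328 against 146, 152 and 138 (-1.24 ± 0.11, adjusted p = 8.5e-08), and at L2C, 1031, 865 and 1010 against 470, 551 and 510 (-0.92 ± 0.11, adjusted p = 2.1e-06). Its paralogues had other values. *Eif4g1* had log2 values of 0.10, -0.28 and -0.43 and passed only at L2C, and *Eif4g3* had 0.35, 0.26 and 0.03 and passed only at MII, a call lost without IP replicate 2 or input replicate 2 or 3 (adjusted p up to 0.14). *Eif4h* had 304, 326 and 326 CPM in L2C inputs and 106, 77.8 and 95.9 in the IPs, -1.77 ± 0.16 (edgeR, adjusted p = 5.9e-08), and milder values of -0.51 ± 0.17 and -0.42 ± 0.15 at MII and L1C. Its IPs at MII did not overlap with the inputs and those at L1C did, and both calls were lost with library size scaling (adjusted p = 0.2 and 0.55). The MII call was also lost without IP replicate 1 or input replicate 2 (edgeR, adjusted p up to 0.1). The L1C call was also lost without any of 4 libraries (adjusted p up to 0.18). *Eif4a1* was lower in the IP at every stage, at 350, 438 and 507 CPM against 220, 206 and 245 at MII, 166, 199 and 235 against 98.2, 102 and 101 at L1C and 95.4, 126 and 90.7 against 53.6, 85.3 and 56.6 at L2C, with log2 values of -0.95 ± 0.18, -1.0 ± 0.18 and -0.68 ± 0.18 (edgeR, adjusted p = 2.8e-04, 2.4e-04 and 0.0049), and the L2C call was lost with library size scaling (adjusted p = 0.074). *Eif4a2* was higher in the IP at L1C (21, 16.5 and 13.5 CPM against 28, 38.3 and 36.5, 1.01 ± 0.20) and did not pass elsewhere, and *Eif4a3* passed at L1C only, a call lost without IP replicate 1 or 3 or input replicate 1 (adjusted p up to 0.22). *Eif4b* was lower at all stages, by 0.37 to 0.58 on the log2 scale, and its L1C call was lost without L1C input replicate 3 (adjusted p = 0.083, edgeR). None of *Eif4e1b*, *Eif4e2* and *Eif4e3* passed at any stage, with log2 values of -0.20 to 0.43, and *Eif4e* passed at L2C (378, 294 and 386 CPM against 498, 567 and 518, 0.58 ± 0.14). The 4E-BP gene *Eif4ebp2* was enriched at MII (8.91, 10 and 8.38 CPM against 16.1, 22.2 and 15.2) and at L1C (4.65, 3.8 and 6.24 against 10.4, 9.57 and 9), by 0.97 ± 0.18 and 0.99 ± 0.19, but *Eif4ebp1* and *Eif4ebp3* passed at no stage.

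**Figure D3:**
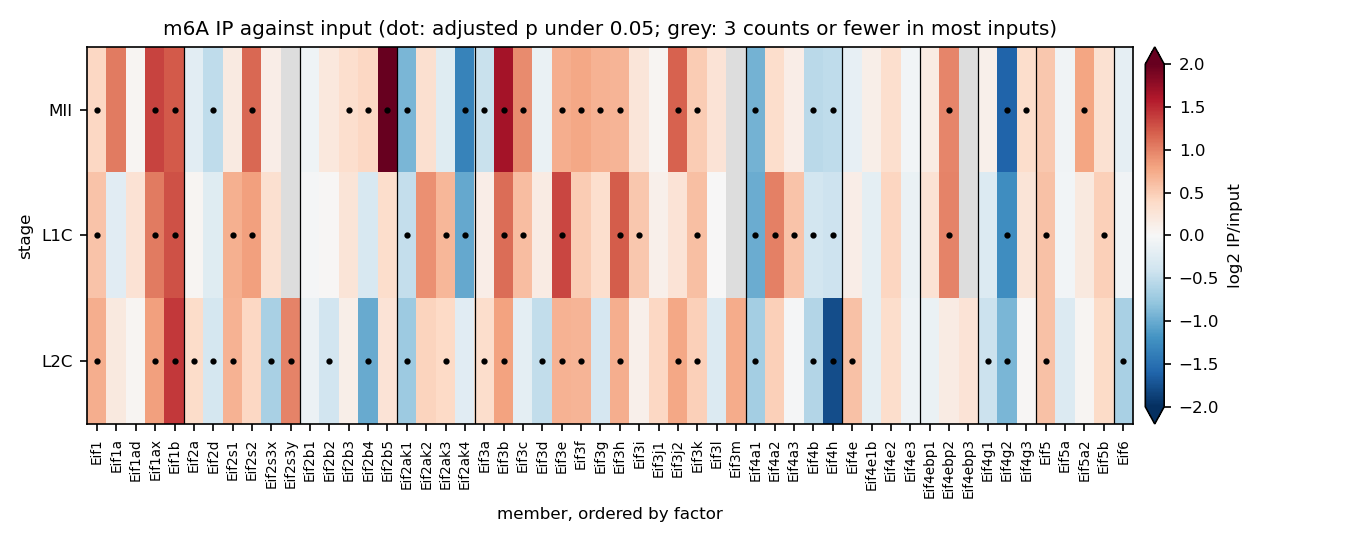
log2 IP/input of the 54 members at MII, L1C and L2C, in order of factor. Dots mark an adjusted p under 0.05 (edgeR), grey cells are members with 3 counts or fewer in most inputs, and colours stop at 2 and -2. *Eif1*, *Eif1ax* and *Eif1b* are red at all stages, and *Eif4g2*, *Eif4a1*, *Eif4b*, *Eif4h* and *Eif2ak1* are blue at all stages.

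Of the eIF2 kinases, *Eif2ak1* was depleted at all stages (503, 451 and 483 CPM against 260, 267 and 231 at MII, 155, 130 and 157 against 116, 105 and 97.1 at L1C, and 70.4, 75.1 and 79 against 45.3, 44.7 and 45.5 at L2C), with the L1C call lost under library size scaling (edgeR, adjusted p = 0.19). *Eif2ak4* was depleted at MII (84.3, 79.5 and 88.3 CPM against 36.2, 31.9 and 32.2, -1.33 ± 0.12, adjusted p = 4.4e-08) and at L1C (41.3, 39 and 44.2 against 18.8, 19.8 and 22.8, -1.02 ± 0.12, adjusted p = 2.5e-06, edgeR). These 2 kinases are those whose mRNA fell at both steps. *Eif2ak3*, which rose, was higher in the IP at L1C (0.67 ± 0.17) and L2C (0.40 ± 0.16), the latter lost without any 1 of the 6 libraries (adjusted p up to 0.15), and *Eif2ak2* passed nowhere. Within eIF2B, *Eif2b5* had 7, 4 and 8 counts in MII inputs and 47, 44 and 39 in the IPs, or 0.369, 0.24 and 0.536 CPM against 2.69, 2.28 and 2.4, a log2 IP/input of 2.69 ± 0.29 (edgeR, adjusted p = 4.6e-07), and at L1C and L2C it did not pass. *Eif2b4* had 35.8, 30.1 and 36.5 CPM against 45.7, 45.4 and 45.2 at MII and 373, 466 and 403 against 211, 198 and 207 at L2C, so it was higher in the IP in oocytes and lower in 2-cell embryos. The MII call of *Eif2b4* was lost without IP replicate 1 or input replicate 2 (adjusted p = 0.052 and 0.11). In eIF2, *Eif2s2* was enriched at MII and L1C (1.15 ± 0.22 and 0.82 ± 0.22), *Eif2s1* at L1C and L2C (0.71 ± 0.22 and 0.69 ± 0.22) and *Eif2d* was depleted at MII and L2C. The L1C call of *Eif2s1* was lost without IP replicate 1 or input replicate 3 (edgeR, adjusted p up to 0.093). Its L2C call was lost without IP replicate 2 or input replicate 2 (adjusted p up to 0.097). The X copy *Eif2s3x* was lower in the IP at L2C (81.1, 74.8 and 79.3 CPM against 53.8, 45 and 50.8, -0.65 ± 0.15), and the Y copy *Eif2s3y* higher (6.96, 4.15 and 5.27 against 9.81, 12.3 and 10.7, 0.99 ± 0.30), a call lost without input replicate 2 (adjusted p = 0.066). Among eIF5 genes, *Eif5* was higher in the IP at L1C and L2C (0.59 ± 0.21 at both), *Eif5b* at L1C and *Eif5a2* at MII, and each of these calls was lost without any of 3 to 5 libraries (adjusted p up to 0.24), while *Eif5a*, at -0.07, -0.06 and -0.28, passed at none. *Eif6* was depleted at L2C (957, 1023 and 1112 CPM against 704, 619 and 653, -0.65 ± 0.18), a call lost with library size scaling (edgeR, adjusted p = 0.077). That scaling also ended the calls of *Eif2d* (adjusted p = 0.061) and *Eif3a* (0.25) at MII, of *Eif4b* (0.65) at L1C and of *Eif2b2* (0.46), *Eif2d* (0.51), *Eif3d* (0.22) and *Eif4g1* (0.19) at L2C, all of them lower in the IP.

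Changes of IP/input between stages were tested as differences of differences. From MII to L1C 1 member was higher and 2 lower, where 3.13% of the genes tested were higher and 4.21% lower. From L1C to L2C 1 was higher and 6 lower (5% and 4.47% of all genes), and from MII to L2C 5 were higher and 11 lower (11.1% and 9.21% of all genes). With the replicate number as a block these counts were 0 and 2, 1 and 4, and 4 and 7. Median differences in log2 IP/input were 0.07, -0.18 and -0.07 for the members and 0.08, 0.00 and 0.06 over all genes. The counts are small and move with single libraries. The 1 higher member from MII to L1C was lost without any of 7 libraries, and it became 2 without L1C input replicate 1. The 2 lower ones became 1 without L1C IP replicate 2, L1C input replicate 3 or MII input replicate 2, the 6 lower ones from L1C to L2C became 3 without L1C IP replicate 3, L1C input replicate 1, L2C IP replicate 3 or L2C input replicate 2, and the 11 lower ones from MII to L2C became 5 without MII input replicate 3, 6 without MII IP replicate 2 and 7 without L2C IP replicate 2 or 3. With library size scaling, the share of all calls from MII to L1C that were higher moved from 42.6% to 53.3%.

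*Eif4h* and *Eif2b4* lost IP/input while their mRNA rose. The mRNA of every member with a lower IP/input at L2C than at MII had risen between those stages. Of those with a higher IP/input, the mRNA of *Eif2a*, *Eif3a*, *Eif4e* and *Eif4g2* had also risen, and that of *Eif2ak4* had fallen. Input is the denominator of the ratio, and a link between the 2 changes was not tested. *Eif4h* went from a log2 IP/input of -0.42 at L1C to -1.77 at L2C, a difference of -1.35 ± 0.22 (edgeR, adjusted p = 8.2e-04), and its input level rose 5.2-fold over that step. *Eif2b4* went from 0.41 at MII through -0.32 to -1.01, a total of -1.42 ± 0.19 (edgeR, adjusted p = 2.7e-05), and its input level rose 15.2-fold. For *Eif2b5* the difference between MII and L2C was -2.42 ± 0.35 (edgeR, adjusted p = 6.3e-05), and nearly all of it lay in the first step, with 4 to 8 counts in MII inputs behind it. eIF3 genes *Eif3c* and *Eif3g* moved from 0.95 and 0.70 at MII to -0.20 and -0.34 at L2C, differences of -1.15 ± 0.17 and -1.04 ± 0.21 (edgeR, adjusted p = 9.4e-05 and 0.0015). Opposite to these, *Eif2ak4* and *Eif4g2* were less depleted at L2C than at MII, by 1.10 ± 0.17 and 0.68 ± 0.15 (edgeR, adjusted p = 1.4e-04 and 0.0038), and *Eif4e* and *Eif3a* were higher by 0.75 ± 0.20 and 0.79 ± 0.20. *Eif2ak4* accounted for the 1 rise from L1C to L2C and *Eif2ak3* for the 1 rise from MII to L1C (0.92 ± 0.24, edgeR, adjusted p = 0.025). The calls of *Eif2b4*, *Eif2b5*, *Eif3c*, *Eif3g* and *Eif4h* (lower) and of *Eif2ak4*, *Eif3a*, *Eif4e* and *Eif4g2* (higher) between MII and L2C were kept under every alternative tried. Those of *Eif2a*, *Eif2b2*, *Eif2s3x*, *Eif3b*, *Eif3l*, *Eif4ebp2* and *Eif4g1* between MII and L2C were each lost without any of 2 to 11 libraries (adjusted p up to 0.13), as were those of *Eif2b4*, *Eif3d* and *Eif4ebp2* between L1C and L2C (4 to 10 libraries, adjusted p up to 0.12), all by edgeR.

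**Figure D4:**
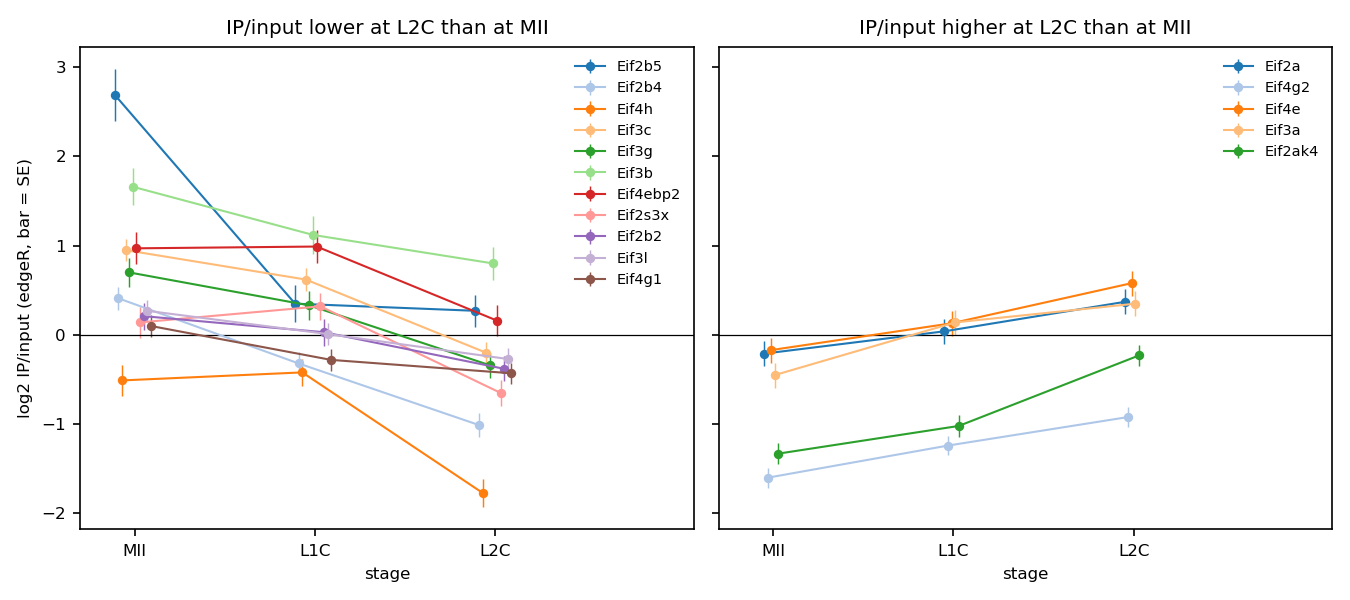
log2 IP/input at MII, L1C and L2C of the members whose ratio was lower (left, 11 genes) or higher (right, 5 genes) at L2C than at MII at an adjusted p under 0.05. Points are estimates of edgeR and bars their SE. *Eif2b5* drops from 2.69 at MII, *Eif4h* falls to -1.77 at L2C, and *Eif4g2* stays below 0 throughout.

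After the knockdown of *Ythdc1*, most initiation factor mRNAs were higher. Of 24 members in the merged count table, which ends on chromosome 7 and has 3 KD and 3 Ctrl libraries, 18 were higher and 3 lower, where 33.5% of the 7433 genes tested were higher and 37.4% lower. Of the 30 members beyond the table, 28 had enough counts in the 2 KD and 3 Ctrl libraries that cover the whole annotation. Of these 19 were higher and 4 lower, where 30.5% of the 17074 genes tested were higher and 36.4% lower. *Eif2ak2* and *Eif4ebp3* were not tested, with at most 0.23 CPM. The median log2 change of the members was 0.41 in the table (-0.06 over all genes tested) and 0.48 beyond it (-0.09 over all). Scaling to library size moves the log2 values of the table's genes by a median of -0.12. The 4 lower members beyond the table became 2 without KD replicate 2, where *Eif2b5* and *Eif4ebp2* were lost (adjusted p = 0.062 to 0.16 over the libraries that end those calls). Under the study's own rule of a log2 change above 1 and an unadjusted p under 0.05, 2 members of the table were higher and 0 lower (14.7% and 22.5% of all genes tested), and beyond it 6 were higher and 1 lower (14.4% and 24.5% of all).

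Marker lists moved with these changes. The summed level of the 7 oocyte transcripts was 671 to 730 CPM in KD and 1429 to 1559 in Ctrl libraries, and that of the 6 2-cell transcripts was 200 to 228 against 810 to 866, with 5 of 7 and 6 of 6 transcripts called lower in KD and 1 oocyte transcript called higher. None of these 13 was at 0 in the libraries of either group. The 10 cumulus and granulosa cell markers summed to 37.9 to 41.2 CPM in KD and 26.3 to 34 in Ctrl, with *Amhr2* called higher (0.59 ± 0.13, edgeR, adjusted p = 0.001), *Cyp19a1* called lower (-3.92 ± 0.87, on 0 to 2 counts in KD), and 4 of 10 at 0 in KD and 5 of 10 in Ctrl. The 4 blood markers summed to 8.42 to 11 against 19.2 to 25, with *Hba-a1* called lower (-1.23 ± 0.17, adjusted p = 1.4e-05) and *Hbb-bs* and *Ptprc* at 0 in both groups. Their part in the changes of the initiation factors was not tested.

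After the knockdown 13 of 14 eIF3 genes were higher and 0 lower, with a median log2 change of 0.83. Of all genes tested 33.5% were higher in the table and 30.5% over the whole annotation. *Eif3d*, the subunit with a cap-binding activity of its own, was at 21.6 and 20.4 CPM in KD and 5.47, 4.52 and 5.87 in Ctrl, higher by 2.00 ± 0.17 on the log2 scale (edgeR, adjusted p = 9.2e-08). *Eif3l* was at 62.4 and 66.4 CPM against 22.9, 19.3 and 19.2, 1.65 ± 0.11 (edgeR, adjusted p = 8.3e-09), and *Eif3e* at 187 and 178 against 84.4, 78.9 and 69.5, 1.23 ± 0.09 (adjusted p = 2.9e-08). KD libraries lay above all Ctrl libraries in each of these. *Eif3m*, in the table, had 651, 553 and 617 CPM in KD and 277, 292 and 259 in Ctrl, 1.14 ± 0.07 (edgeR, adjusted p = 2.7e-10), the smallest adjusted p of any member. The core subunit genes *Eif3a* and *Eif3c* changed by 1.07 ± 0.08 and 0.83 ± 0.07, *Eif3b* by 0.83 ± 0.09 and *Eif3g* by 1.01 ± 0.10. *Eif3f*, *Eif3h*, *Eif3j1*, *Eif3j2* and *Eif3k* rose by 0.21 to 0.79, and the call of *Eif3k* was lost without Ctrl replicate 1 (adjusted p = 0.052). *Eif3i*, at 353, 360 and 347 CPM against 310, 320 and 362, overlapped and did not pass (adjusted p = 0.23). The summed level of eIF3 was 3379 CPM (n = 2) in KD and 1931 ± 38.4 (SD, n = 3) in Ctrl embryos over the whole annotation.

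All 5 eIF1 genes rose as well, against the same 33.5% and 30.5% of all genes. *Eif1* was at 1254 and 1233 CPM in KD and 1050, 1039 and 991 in Ctrl (0.28 ± 0.07, edgeR, adjusted p = 0.0014), and *Eif1b* at 42.3 and 37.9 against 19.1, 23.1 and 19.5 (0.96 ± 0.12, adjusted p = 5.4e-06). *Eif1a* was at 171 and 163 CPM against 98.3, 105 and 98 (0.74 ± 0.08), *Eif1ax* in the table at 360, 337 and 359 against 266, 261 and 220 (0.50 ± 0.08), and *Eif1ad* rose by 1.01 ± 0.10. None of them overlapped between the groups. In eIF2, *Eif2a* rose by 0.95 ± 0.09, *Eif2s1* by 0.59 ± 0.08, *Eif2s2* by 0.48 ± 0.05 and *Eif2s3x* by 0.43 ± 0.07, from 249, 248 and 229 CPM to 329, 312 and 341. *Eif2s3y* had 18.4 and 14 CPM in KD and 21.1, 19.7 and 18.6 in Ctrl and did not pass (-0.29 ± 0.15, adjusted p = 0.099). *Eif2d* was lower, at 105, 105 and 108 CPM against 122, 134 and 140 (-0.31 ± 0.09, edgeR, adjusted p = 0.0042).

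The eIF2 kinases split. *Eif2ak4* was at 80.1, 82.6 and 91 CPM in KD and 26.8, 23.7 and 27.5 in Ctrl, a log2 value of 1.71 ± 0.12 (edgeR, adjusted p = 5.7e-10), and *Eif2ak1* at 85.1, 89.3 and 88.5 against 57.5, 42.8 and 52.7, 0.78 ± 0.12 (adjusted p = 7.8e-06). Both are the kinases whose mRNA fell over the MZT. *Eif2ak3* was slightly lower, at 148, 132 and 141 CPM against 160, 166 and 168 (-0.23 ± 0.08), a call lost without KD replicate 2 or 3 or Ctrl replicate 2 (adjusted p up to 0.093, edgeR). Of the eIF2B genes *Eif2b1* and *Eif2b4* rose by 0.31 ± 0.06 and 0.25 ± 0.09, *Eif2b5* was lower (-0.32 ± 0.10), and *Eif2b2* and *Eif2b3* did not pass. The call of *Eif2b4* was lost without Ctrl replicate 1 or 2 or KD replicate 2 (adjusted p up to 0.07).

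In the cap-binding complex the largest change of any member was the fall of *Eif4e1b*, at 10.6 and 10.7 CPM in KD and 49.4, 55.3 and 54.3 in Ctrl, -2.31 ± 0.12 on the log2 scale (edgeR, adjusted p = 9.1e-10). Its paralogues *Eif4e*, at 4328, 4027 and 4444 CPM against 3313, 3255 and 3024, and *Eif4e2*, at 376, 389 and 378 against 277, 271 and 299, rose by 0.42 ± 0.06 and 0.43 ± 0.07 (edgeR, adjusted p = 3.6e-06 and 1.6e-05). *Eif4e3* had 270, 244 and 267 CPM against 280, 279 and 296 and did not pass (adjusted p = 0.12). The oocyte marker sum given above was also lower in KD, and a link with *Eif4e1b* was not tested. Of the other members whose mRNA fell from MII to L2C, *Eif2d* was called lower in KD and *Eif3i* and *Eif4e3* did not pass. The rest, among them *Eif1b*, *Eif2ak4* and *Eif4g3*, were called higher. *Eif4g3* rose from 41.3, 45.6 and 43.2 CPM to 82.2, 84.9 and 90 (0.98 ± 0.11, edgeR, adjusted p = 1.8e-07), while *Eif4g1* (145 and 160 CPM against 146, 139 and 151) and *Eif4g2* (1185 and 1082 against 1239, 1208 and 1079) overlapped between the groups. Among the helicase genes *Eif4a3* rose (225 and 233 CPM against 158, 158 and 160, 0.53 ± 0.08), *Eif4a2* fell (173 and 146 against 227, 223 and 190, -0.42 ± 0.10, edgeR, adjusted p = 0.0014), and *Eif4a1* (331 and 365 against 271, 287 and 338) overlapped, with a call at 0.22 ± 0.09 that was lost without Ctrl replicate 1 or 2 or KD replicate 2 (adjusted p up to 0.26). *Eif4h* rose by 0.80 ± 0.08 and *Eif4b* by 0.46 ± 0.10. *Eif4ebp1* rose (51.3 and 63 CPM against 32.1, 36.1 and 43.3, 0.63 ± 0.13) and *Eif4ebp2* was lower (20.5 and 20.1 against 28.2, 22.7 and 25.7, -0.33 ± 0.13, adjusted p = 0.036), the latter lost without KD replicate 1 or 2 or Ctrl replicate 1.

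Of the last factors, *Eif5* and *Eif5b* rose by 0.25 ± 0.06 and 0.41 ± 0.05, and *Eif6* by 0.29 ± 0.08. The calls of *Eif6*, *Eif2b4*, *Eif3k* and *Eif4a1* were lost with library size scaling (edgeR, adjusted p = 0.071, 0.23, 0.29 and 0.2). *Eif5a* was at 185 and 209 CPM against 194, 193 and 224 and did not pass. *Eif5a2* was lower, at 28.4, 31.2 and 32.3 CPM against 39.4, 42.2 and 43.7 (-0.44 ± 0.13, edgeR, adjusted p = 0.0049).

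**Figure D5:**
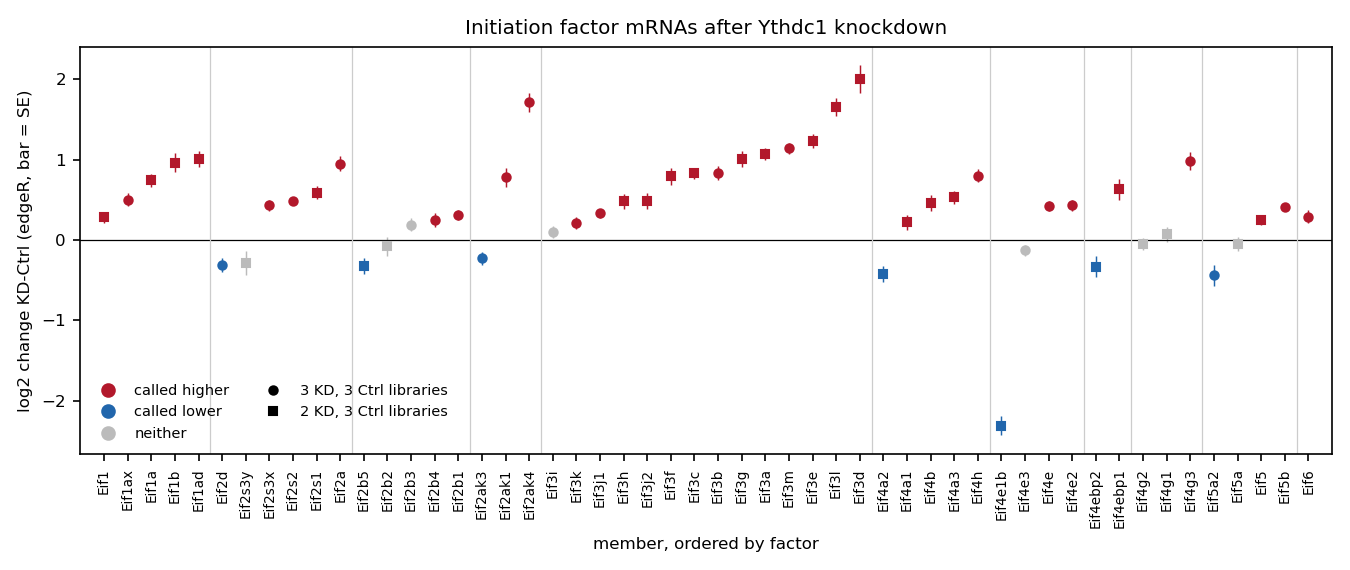
log2 change KD-Ctrl of the 52 members tested, in order of factor and then of size. Circles are members of the merged table (3 KD and 3 Ctrl libraries), squares those beyond it (2 KD and 3 Ctrl), bars the SE of edgeR, and colours mark an adjusted p under 0.05. All eIF3 genes but *Eif3i* are called higher, and *Eif4e1b* lies lowest at -2.31.

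Other genes of translation were taken from a list of 41, of which 40 matched the annotation. Of 11 elongation and termination genes tested, 7 rose and 3 fell from L1C to L2C, with a median log2 change of 1.27, where 44.1% of all genes tested rose and 38.8% fell. *Eef2*, the translocase, rose by 3.28 ± 0.20 and *Etf1*, the release factor, by 2.35 ± 0.13, while *Gspt2* and the kinase gene *Eef2k* fell by 3.99 ± 0.16 and 2.67 ± 0.16 on the log2 scale (edgeR, adjusted p = 2.5e-11 and 9.9e-10). Of 28 partners and regulators of initiation, 18 rose and 6 fell at that step (against the same 44.1% and 38.8%), and without *Eif4enif1*, which is listed at 0 in the L2C inputs, 18 rose and 5 fell of 27. *Dohh*, which helps to make the hypusine of eIF5A, rose by 5.79 ± 0.19, and the oocyte poly(A)-binding protein gene *Pabpc1l* fell by 4.64 ± 0.18 (edgeR, adjusted p = 4.1e-12 and 1.6e-11). In KD embryos 2 of 2 elongation and termination genes in the merged table and 7 of 9 beyond it were higher and 0 were lower, where 33.5% and 30.5% of all genes tested were higher. *Abce1* was at 1.09 ± 0.09 and *Gspt1* at 1.16 ± 0.10. Of the partners 7 of 13 in the table were higher and 1 lower, and 7 of 15 beyond it higher and 5 lower. Over all genes 37.4% and 36.4% were lower. *Impact*, an inhibitor of GCN2, was higher by 2.23 ± 0.16 (edgeR, adjusted p = 1.9e-08), and *Ppp1r15a*, whose product helps to dephosphorylate eIF2, was lower (-0.78 ± 0.08, adjusted p = 5.7e-08).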

How the data were processed

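Conditions were taken from the sample labels. The authors quantified SLIM-seq reads with kallisto and tximport and deposited estimated counts per gene, whose targets span whole genes with introns on GRCm38. For the knockdown reads had been trimmed (Trimmomatic) and mapped (HISAT2), and the authors deposited raw counts of read pairs on exons from featureCounts 2.0.1 (unstranded). The merged knockdown table and the file of KD replicate 3 end on chromosome 7, so members beyond it were tested in 2 KD and 3 Ctrl libraries. Estimated counts were rounded. All genes were fitted with the quasi-likelihood test of edgeR 4.0.16 in R 4.3.3 (TMM, filterByExpr, BH-adjusted p under 0.05 over all genes tested): 9 inputs together, all 18 SLIM-seq libraries in 1 fit with a mean for every stage of IP and of input, and each knockdown table. SE is the size of the log2 change divided by the square root of F, and CPM are scaled by TMM. Floors (3 counts) cover counting error only, whereas the SE also takes in the spread between libraries. Gene positions, symbols and mRNA sequences came from GENCODE M21, where 40 of 41 further listed genes matched. The members and lists were chosen with earlier results of these data known. Every member was named, with per-library values for the 2 of smallest p in each direction of a comparison and for paralogue groups and kinases. Fits were tested on simulated data with 200 genes changed 2-fold: 143 were found from MII to L1C among 19107 genes (10 false calls), 127 for IP at MII among 20303 (4 false), 64 for the change of IP/input from MII to L2C among 20313 (1 false) and 195 for the knockdown among 7106 (12 false). Alternatives were DESeq2 1.42.0, library size scaling, no filter, a replicate block, fits of the compared stages only, the study's rules and each library left out. Python 3.11.15, numpy 2.4.6, pandas 2.3.3 and matplotlib 3.10.9 made the tables and figures.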

Additional observations from a re-analysis of the deposited data

Results flagged for a closer look

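The change of IP/input between stages was tested as a difference of differences, and 26 such changes passed. From MII to L1C they were those of *Eif2ak3* (0.92 on the log2 scale), *Eif2b4* (-0.73) and *Eif2b5* (-2.34). From L1C to L2C they were those of *Eif2ak4* (0.79), *Eif2b4* (-0.69), *Eif2s3x* (-0.97), *Eif3c* (-0.82), *Eif3d* (-0.66), *Eif4ebp2* (-0.82) and *Eif4h* (-1.35). From MII to L2C the higher ones were *Eif2a* (0.57), *Eif2ak4* (1.1), *Eif3a* (0.79), *Eif4e* (0.75) and *Eif4g2* (0.68). The lower ones were *Eif2b2* (-0.59), *Eif2b4* (-1.42), *Eif2b5* (-2.42), *Eif2s3x* (-0.79), *Eif3b* (-0.86), *Eif3c* (-1.15), *Eif3g* (-1.04), *Eif3l* (-0.54), *Eif4ebp2* (-0.81), *Eif4g1* (-0.53) and *Eif4h* (-1.26). The comparison of MII with L2C shares its libraries with both steps, so these are not independent of each other.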

How the results depend on the processing

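Of 283 calls of single members, 0 reversed under any alternative. Each call was compared with its value under DESeq2, library size scaling, no filter, the replicate block and, where they applied, the compared stages only or the whole annotation without KD replicate 3, while the study's rules were compared by counts alone. Of 1392 such comparisons under other settings 1320 held and 72 were lost, and of 1831 without 1 library 1633 held and 198 were lost. With library size scaling the members higher and lower in the IP were 28 and 5 for MII, then 32 and 3 for L1C and 27 and 6 for L2C, a scaling that raises IP/input over all genes by the medians given above. The count of 1 member with a higher IP/input at L1C than at MII became 2 with DESeq2, 3 with library size scaling and 0 with no filter on low counts, with the replicate block or with the compared stages only, and the 1 from L1C to L2C became 0 with the compared stages only. Under the study's rule the knockdown gave 2 higher and 0 lower members in the table and 6 and 1 beyond it. The cause of these moves was not tested.

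Leaving out 1 library gave these ranges of higher and lower members: 10 to 12 and 24 to 27 from MII to L1C, 40 to 40 and 8 to 11 from L1C to L2C, 34 to 36 and 13 to 13 from MII to L2C, 12 to 17 and 7 to 8 for IP at MII, 13 to 18 and 4 to 8 at L1C, 9 to 14 and 9 to 13 at L2C, 0 to 2 and 1 to 2 for the change of IP/input from MII to L1C, 1 to 1 and 3 to 6 from L1C to L2C, 4 to 5 and 5 to 11 from MII to L2C, 17 to 19 and 2 to 3 for the knockdown in the table, and 18 to 19 and 2 to 4 beyond it.

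Inputs and IPs shared batches of RNA according to the study's methods, but no source used here says that a replicate number marks a batch, and the numbers were not taken as pairs. Deviations of same-numbered libraries correlated at -0.432 to 0.225 between IP and input, -0.229 to 0.446 between inputs and -0.046 to 0.082 between KD and Ctrl. Libraries with different numbers correlated at -0.518 to 0.716 (L1C IP replicate 3 with input replicate 2), -0.538 to 0.577 and -0.117 to 0.137. A block by replicate number would not take up batches shared under different numbers, which were not tested. With the replicate block 21 of 283 calls were lost, and the 11 members with a lower IP/input at L2C than at MII became 7. Leaving out *Eif3m*, chosen after seeing the data, changed each count of called mRNAs by at most 1.

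Levels rest on spans of whole genes, 29 of 54 members overlap another gene, and mRNAs near the floor (*Eif1a*, *Eif2b5*, *Eif2s3y*, *Eif4ebp3* and *Eif5a2* at MII) rest on few counts. Members beyond the merged table have 2 KD libraries.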

Other observations

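*Eif4enif1*, which the symbol rule leaves out, had 0 estimated counts in the L2C inputs and 142 to 150 CPM in Ctrl embryos of the same stage counted on exons, as *Eif3m* was at 0 in MII and L1C libraries. Elongation and termination genes were higher in the IP in 6, 4 and 3 of 11 cases over the stages and lower in 1, 1 and 2, where 17.7%, 15.8% and 22% of all genes tested were higher and 21%, 18.2% and 22% lower. *Eef1a1*, the main elongation factor gene, was higher at all 3 stages (log2 IP/input 1.06 ± 0.17, 1.12 ± 0.16 and 0.49 ± 0.16, edgeR, adjusted p = 5.4e-05, 2.4e-05 and 0.016), and *Eef2k* was lower at all 3 (-0.71 ± 0.13, -1.01 ± 0.13 and -0.98 ± 0.14). Of the 28 partners of initiation, 7, 7 and 8 were higher and 8 at each stage were lower (against the same shares of all genes), among them *Paip2b*, an inhibitor of the poly(A)-binding protein, at -1.36 ± 0.13, -1.74 ± 0.13 and -1.15 ± 0.13.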
